A study of Mus musculus with 34 samples.

Results

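Gene deserts are long stretches of a chromosome without a protein-coding gene, and 12728 of the 119227 open regions of the 2 uninduced cell types lay in them. A desert region was a position of peak accessibility (a summit) on chromosomes 1 to 19 or X that was more than 200 kb from the interval of every protein-coding gene of mm10. Summits of the uninduced embryoid body list and the uninduced fibroblast list within 250 bp of each other counted once. The remaining 106499 regions, inside or within 200 kb of a gene, are called the other regions. Each desert region was followed through all 19 deposited summit lists and counted as found where a list had a summit within 250 bp. A list without such a summit had no called peak there, which does not show that the DNA was closed.

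Chromatin accessibility was measured by ATAC-seq, which tags exposed DNA with a transposase, in mouse cells that carry HA-tagged Etv2 under a doxycycline-controlled promoter. The cells were embryoid bodies (EB), balls of embryonic stem cells that differentiate, and mouse embryonic fibroblasts (MEF), which Etv2 can turn towards the endothelial lineage. The first set of EB comprised a doxycycline-induced group sorted for Flk1, an unsorted induced group and an uninduced group, labelled 12 h. Their titles also carry D25, and the time was taken as the labelled 12 h. Other EB carried floxed Brg1 alleles, all received doxycycline and were taken at day 4, with 4-hydroxytamoxifen (4OHT), which triggers deletion, or without it. The MEF without knockdown were taken after 1, 2 and 7 days of doxycycline, at day 7 also sorted for Flk1, and uninduced. MEF with Brg1 knockdown were taken at day 0 and after 1, 2 and 7 days with or without doxycycline. Each of the 17 groups has 2 samples, 34 in all. Only the 4 floxed samples have a list each, and in the other 15 groups a single list stands for both samples. Those 15 lists therefore have no replicate error, and no p-value is given for them. The labels do not say whether the 2 samples of a group came from separate cultures.

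Etv2 is an ETS-family transcription factor that starts the endothelial and blood programmes of the mesoderm, and Flk1, the VEGF receptor encoded by Kdr, marks their progenitors. Brg1, encoded by Smarca4, is an ATPase of the SWI/SNF complexes that slide and evict nucleosomes. Deserts hold few promoters of coding genes, and the open regions known from them are mostly distal enhancers, sites of the insulator protein CTCF, promoters of long non-coding RNAs and repeated DNA. Deserts often flank genes of development, whose enhancers can act over very long distances.

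The desert regions whose DNA could be printed are those at the promoters of annotated long non-coding RNAs. Of 1050 promoter windows in deserts of genes other than protein-coding ones, each of 250 bases before and 50 after the start, 61 windows of 56 genes, all long non-coding, held a desert summit, and they held 58 desert regions, of which 39 were open in EB alone, 10 in MEF alone and 9 in both. The windows below were chosen after their values were seen, to show promoters of all 3 kinds. They come from RefSeq, assembly GRCm38.p6, the build that mm10 names, and read 5′ to 3′. Capitals mark the motifs searched on both strands, which were an ETS motif CCGGAAGT, an AP-1 motif TGACTCA and the GC box GGGCGG.
Firre promoter, chrX:50635272-50635571, minus strand: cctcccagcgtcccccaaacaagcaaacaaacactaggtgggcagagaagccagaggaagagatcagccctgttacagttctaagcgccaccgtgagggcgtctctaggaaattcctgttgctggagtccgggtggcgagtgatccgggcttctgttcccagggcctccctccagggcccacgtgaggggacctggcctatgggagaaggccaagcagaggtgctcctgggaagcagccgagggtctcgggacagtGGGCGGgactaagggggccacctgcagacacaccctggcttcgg
Gm26901 promoter, chr1:7398047-7398346, minus strand: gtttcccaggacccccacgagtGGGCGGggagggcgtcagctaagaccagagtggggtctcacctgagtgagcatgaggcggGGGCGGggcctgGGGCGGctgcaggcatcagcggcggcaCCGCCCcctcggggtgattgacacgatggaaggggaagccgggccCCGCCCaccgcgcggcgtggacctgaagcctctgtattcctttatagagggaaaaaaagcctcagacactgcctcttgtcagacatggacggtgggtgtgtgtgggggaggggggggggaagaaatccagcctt
Mir99ahg promoter, chr16:77329078-77329377, plus strand: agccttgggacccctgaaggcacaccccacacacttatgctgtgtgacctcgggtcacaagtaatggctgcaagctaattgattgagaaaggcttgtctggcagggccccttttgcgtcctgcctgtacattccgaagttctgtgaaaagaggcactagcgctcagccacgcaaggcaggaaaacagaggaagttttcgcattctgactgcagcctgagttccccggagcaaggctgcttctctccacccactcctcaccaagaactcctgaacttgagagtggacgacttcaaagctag
Mir100hg promoter, chr9:41474643-41474942, plus strand: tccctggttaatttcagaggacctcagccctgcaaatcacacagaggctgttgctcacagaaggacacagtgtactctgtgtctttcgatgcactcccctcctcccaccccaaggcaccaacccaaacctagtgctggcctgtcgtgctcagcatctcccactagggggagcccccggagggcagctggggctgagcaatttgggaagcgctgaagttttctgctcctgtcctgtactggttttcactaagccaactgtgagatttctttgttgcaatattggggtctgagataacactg
Gm8883 promoter, chr1:71887862-71888161, plus strand: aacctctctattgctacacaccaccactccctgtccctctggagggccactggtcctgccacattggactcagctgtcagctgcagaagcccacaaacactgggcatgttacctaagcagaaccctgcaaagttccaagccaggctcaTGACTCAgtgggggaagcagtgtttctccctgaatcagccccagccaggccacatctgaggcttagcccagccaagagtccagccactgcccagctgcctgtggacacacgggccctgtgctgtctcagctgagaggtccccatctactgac
D230030E09Rik promoter, chr12:118530144-118530443, minus strand: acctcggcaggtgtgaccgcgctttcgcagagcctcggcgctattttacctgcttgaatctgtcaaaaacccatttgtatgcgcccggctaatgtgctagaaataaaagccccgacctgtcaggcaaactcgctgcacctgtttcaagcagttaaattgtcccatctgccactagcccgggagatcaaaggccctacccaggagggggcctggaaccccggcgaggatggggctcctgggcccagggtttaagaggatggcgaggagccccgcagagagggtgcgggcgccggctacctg
The first 4 were open in both cell types, Gm8883 in MEF alone and D230030E09Rik in EB alone. Firre, which makes a nuclear architectural RNA from the X chromosome, held 1 GC box and 12 CG dinucleotides and was found in 15 lists, all but 4OHT replicate 1, MEF at day 7 and the knockdown lists of day 7, Gm26901 held 5 GC boxes and 18 CG and was found in all 19, and D230030E09Rik held 18 CG and no searched motif and was found in 6. Gm8883, in the desert beside the fibronectin gene Fn1, held 1 AP-1 motif and a single CG and was found in 8 lists. The median promoter of the table held 7 CG. A GC box was held by 35.9% of 32619 promoters of the table, the AP-1 motif by 5.22% and the ETS motif by 3.91%. A match is a description of letters and not a binding site.

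The host genes Mir100hg and Mir99ahg are named for paralogous microRNA clusters, whose products are shown because 3 desert regions lay within 2 kb of Mir100 or Mir125b-1. Capitals mark the seed, bases 2 to 8, with which a microRNA pairs to its targets.
mmu-miR-100-5p: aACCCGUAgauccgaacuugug
mmu-miR-99a-5p: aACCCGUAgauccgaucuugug
mmu-miR-125b-5p: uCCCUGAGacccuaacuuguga
miR-100 and miR-99a share 1 seed, and miR-125b is made from both loci. The desert regions lay 1744 bp from Mir100 and 478 and 925 bp from Mir125b-1. Just before the Mir100hg gene, at chr9:41376452, a desert region was open in EB alone and was also found in induced EB. It lay in another promoter window of Mir100hg, which is not printed here. The gene itself (chr9:41376526-41615185) held 20 desert regions, 19 open in MEF alone and 1 in both cell types. In MEF the number of those 20 found was 10 after 1 day of doxycycline, 3 after 2 days, 0 after 7 days and 1 in Flk1-sorted cells, and 7 were found in knockdown MEF at day 0. Of all MEF regions 62.6%, 33.2%, 20.2%, 35.4% and 46.9% were found in these lists, and of MEF-only desert regions 47.8%, 16.2%, 10.6%, 18.2% and 20.2%. The Mir99ahg interval of the annotation (chr16:77329328-77558428), which ends before Mir99a at chr16:77598940-77598961, held 17 desert regions, 6 open in EB alone, 8 in MEF alone and 3 in both. Of its 11 MEF regions, 6 were found at day 1, 1 at day 2, 1 at day 7 and 3 in Flk1-sorted cells, and of its 9 EB regions 8 were found in induced EB. Both host genes were chosen after their values were seen. A further microRNA family, Mir344 in the desert Gm51483–Ndn, had 6 desert regions 40 to 91 bp from 6 of its precursors, of which 4 were open in both cell types.

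The 2 cell types shared few desert regions. Of the 12728 regions, 9165 (72.0%) were open in EB alone, 2832 (22.3%) in MEF alone and 731 (5.74%) in both, whereas 20.6% of the other regions were open in both. Of the 9896 desert regions with an EB summit, 7.39% (95% Clopper-Pearson interval 6.88 to 7.92) were also in uninduced MEF, against 30.1% of the other EB regions and 27.4% of all EB regions. Of the 3563 with a MEF summit, 20.5% were also in uninduced EB, against 39.6% of the other MEF regions and 38.4% of all MEF regions. Intervals cover counting error only, and in mixed cells fewer open cells and less accessibility per cell cannot be told apart. The share of EB regions also open in MEF was 35.6% inside genes, 37.6% within 10 kb, 19.2% at 10 to 50 kb, 12.5% at 50 to 200 kb, 9.12% at 200 to 500 kb and 4.81% beyond 500 kb. The low overlap therefore extended a gradient that began near genes and did not start at the 200 kb limit.

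The lists differ in length and depth is unknown, so a found share also depends on how many peaks were called. The uninduced lists held 85498 summits in EB and 62028 in MEF, and the others between 11188 and 77987. The floxed and knockdown lists write their scores with at most 6 significant digits, whereas 27.6% to 55.9% of the scores of the other lists have more, so their processing differed, and values of knockdown and unperturbed MEF cannot be told apart from it. The floxed lists also hold a single summit per desert peak, whereas uninduced EB has 10131 desert summits in 8993 peaks. Desert regions had weaker summits, with a median score, the −log10 q value of the authors' peak caller, of 8.75 in EB, against 12.9 for other regions, and 8.20 in MEF, against 11.1. Within 10 kb of the pluripotency genes Pou5f1, Nanog and Sox2 lay 5, 6 and 7 summits in uninduced EB and 2, 2 and 0 in uninduced MEF. Around the fibroblast genes Col1a1, Col1a2 and Thy1 lay 2, 3 and 1 in uninduced EB and 6, 6 and 1 in uninduced MEF. Around the endothelial genes Kdr and Cdh5, Flk1-sorted EB had 4 and 5, against 2 and 10 in uninduced and 3 and 9 in unsorted induced EB. Flk1-sorted MEF had 3 and 4, against 3 and 6 in uninduced MEF and 0 and 2 in unsorted MEF of day 7. Both counts of sorted MEF were thus above those of unsorted day 7 cells, whose list is shorter, but not above those of uninduced MEF. In EB the 2 genes went opposite ways.

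Desert regions were spread over 727 deserts with a median of 11 regions each. Their median distance to the nearest protein-coding gene was 395172 bp, 4768 lay beyond 500 kb and 1416 beyond 1 Mb. Of the deserts, 52 held a single region and 51 held 50 or more, and the 10 fullest held 1050 regions, or 8.25%. Between genes the desert sequence measured 517 Mb in all and held 24.3 regions per Mb, with the lowest density on chromosome X (11.9 per Mb) and the highest on chromosome 2 (32.8 per Mb). Both EB-only and MEF-only regions were called in 478 deserts, and 200 of those held no shared region. Shared regions make up only 5.74% of all desert regions, and the number of such deserts to expect from that was not computed. At the limit, 475 desert regions lay between 200 and 210 kb and 524 other regions between 190 and 200 kb, and 59.8% and 55.9% of their EB regions were found in induced EB.

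The fullest deserts were mostly EB deserts. Adam6a–Zfp386 (chr12:113546414-116047714), which spans the immunoglobulin heavy-chain locus, held 185 regions, 178 open in EB alone, 4 in MEF alone and 3 in both. Across all deserts 41 regions lay inside immunoglobulin or T cell receptor gene segments, which the annotation keeps apart from protein-coding genes, and all 41 were open in EB alone. Pcdh20–Pcdh9 (chr14:88471396-93013700), between 2 protocadherin adhesion genes, held 111 regions, 97 in EB alone, 14 in MEF alone and none in both. Got2–Cdh8 (chr8:95888401-99024471), beside a neuronal cadherin, held 64 EB-only regions, no MEF-only region and 1 shared. Nr2f1–Arrdc3 (chr13:78198873-80883384), beside the nuclear receptor gene Nr2f1, held 105, of which 83 were EB only, 20 MEF only and 2 shared.

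Other deserts held more MEF-only regions. More MEF than EB regions were found in 118 deserts, among them Myc–Gsdmc and F2rl3–Isx. Myc–Gsdmc (chr15:61990361-63775971), downstream of the proto-oncogene Myc, held 35 MEF-only regions, 17 EB-only and 6 shared. F2rl3–Isx (chr8:72763898-74873174), beside a thrombin receptor gene, held 30 MEF-only, 25 EB-only and 6 shared. Among the deserts with the most MEF-only regions, others still held more EB regions. Nmbr–Cited2 (chr10:14771458-17723228), beside the transcriptional coregulator Cited2, held 31 MEF-only, 48 EB-only and 5 shared, and Slc10a2–Efnb2 (chr8:5105287-8617235), beside the arterial ligand ephrin B2, held 30 MEF-only, 41 EB-only and 1 shared.

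**Figure D1:**
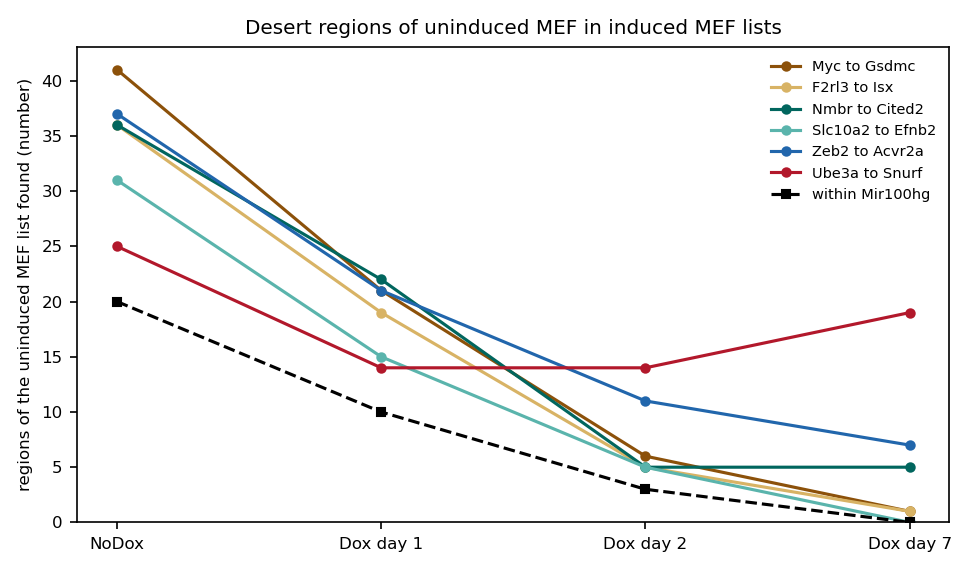
Number of MEF desert regions (y axis, regions) found in uninduced MEF and at days 1, 2 and 7 of doxycycline (x axis) in 6 deserts with at least 25 MEF regions (solid lines) and within Mir100hg (dashed line). In Myc–Gsdmc the count was 41 uninduced, 21 at day 1, 6 at day 2 and 1 at day 7, whereas Ube3a–Snurf had 25, 14, 14 and 19.

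Lists of flanking genes described the deserts further, and these lists were drawn up with results of these data known. Genes of cell adhesion and axon guidance flanked 100 of the 809 desert stretches between genes (12.4%). Those stretches held 24.3% of the desert regions and 26.0% of the desert sequence, at 22.8 regions per Mb, against 24.8 in the other stretches. The share of regions there thus followed the length of the deserts. They held 26.8% of the EB-only and 17.3% of the MEF-only regions. Developmental transcription factor genes flanked 95 stretches with 27.9 regions per Mb, against 23.9 elsewhere, with 10.2% of the EB-only and 12.96% of the MEF-only regions.

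After induction of Etv2 in EB, a smaller share of desert regions than of other regions of uninduced EB was still called. In Flk1-sorted induced EB 39.9% (3945 of 9896) were found, against 56.0% of other EB regions and 54.1% of all. In unsorted induced EB 57.8% (5716; interval 56.8 to 58.7) were found, against 71.5% of other EB regions and 69.9% of all. The lists held 58004 summits in sorted and 77987 in unsorted induced EB, against 85498 in uninduced EB, with which both were compared. Of the desert regions, 37.4% were in both induced lists, 20.3% in the unsorted one alone, 2.42% in the sorted one alone and 39.8% in neither. The other EB regions had 52.9%, 18.6%, 3.07% and 25.4%.

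In unsorted induced EB the gap between desert and other regions lay in the 3 weaker quartiles of score. The found shares by quartile of EB score, weakest first, were 21.8%, 49.2%, 80.9% and 98.3% of desert regions, against 33.9%, 63.2%, 87.3% and 98.0% of other regions. In the strongest quartile the 2 kinds were thus within 1 point of each other. In Flk1-sorted EB the desert shares were 10.8%, 21.2%, 54.5% and 91.5%, against 16.4%, 37.1%, 70.7% and 95.5%, with desert regions lower in every quartile. The same order ran through the distance classes: found shares in unsorted induced EB were 74.4% inside genes, 73.8% within 10 kb, 67.0% to 50 kb, 62.9% to 200 kb, 58.7% to 500 kb and 56.3% beyond.

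**Figure D2:**
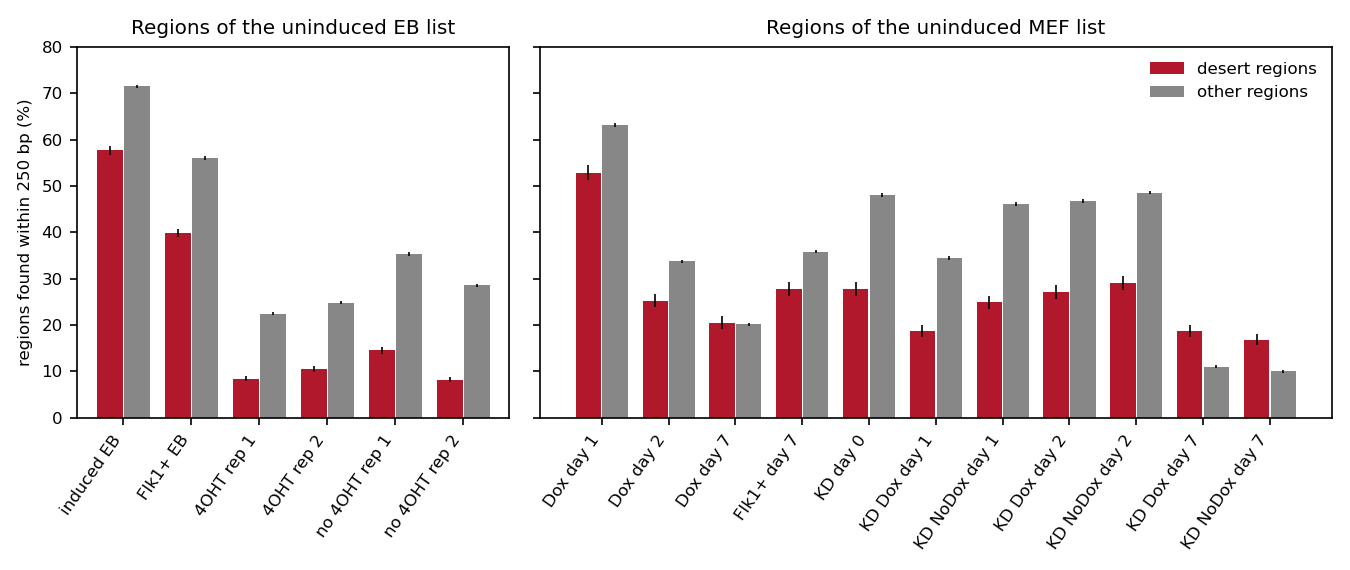
Percent of desert regions (red bars) and other regions (grey bars) of the uninduced EB list (left) and MEF list (right) found within 250 bp (y axis, with 95% Clopper-Pearson intervals for counting error) in each list followed (x axis). Desert shares lay below those of other regions in all EB lists and at MEF days 1 and 2, at 57.8% against 71.5% in unsorted induced EB and 20.5% against 20.2% in MEF at day 7.

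Single deserts varied around the EB share. The Adam6a–Zfp386 desert had 68 of its 181 EB regions in Flk1-sorted and 111 in unsorted induced EB. Nr2f1–Arrdc3 had 28 and 42 of 85, and Pcdh20–Pcdh9 32 and 46 of 97. Adgrl2–Adgrl4 (chr3:148989096-151437882), beside an adhesion receptor gene of endothelial cells, had 21 and 28 of 66. Zeb2–Acvr2a (chr2:45117442-48814109), beside a transcription factor of mesenchymal transition, had 28 and 40 of 67. Adgrl2–Adgrl4 was thus among the deserts where fewer EB regions were called after induction, and Adam6a–Zfp386 was near the share of all deserts.

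Deserts beside endothelial and blood genes had lower found shares than all deserts together, which was not tested. The 12 such deserts held 291 regions, and of their 190 EB regions 60 (31.6%) were found in Flk1-sorted and 85 (44.7%) in unsorted induced EB, against 39.9% and 57.8% of all desert EB regions. Adgrl2–Adgrl4 alone holds 66 of those 190. Cdh11–Cdh5 (chr8:102785493-104101613), beside the gene of VE-cadherin, held 24 EB-only regions, 17 MEF-only and none shared, and 5 of the 24 were found in sorted and 10 in unsorted induced EB. Runx1–Setd4 (chr16:92826074-93583457), beside the gene of the blood-stem-cell factor Runx1, held 1 EB-only, 6 MEF-only and 1 shared region. Deserts beside fibroblast genes had 52 (39.7%) and 75 (57.3%) of 131 EB regions found, and those beside pluripotency genes 45 (43.3%) and 63 (60.6%) of 104. Fbxo8–Hand2 (chr8:56593939-57320983), beside a heart transcription factor gene, held 14 regions, all EB only, of which 6 and 8 were found.

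New desert summits, absent from the uninduced list, appeared in induced EB as well. In Flk1-sorted EB 998 desert summits were new, 19.6% of its desert summits, against 18.7% of all its summits. In unsorted induced EB 1704 were new, 22.3% of its desert summits, against 21.9% of all. Desert summits were thus new about as often as summits in general. The deserts with the most new summits in unsorted induced EB, named after their values were seen, were Adam6a–Zfp386 with 43 and Cntnap5b–Cdh20 with 17. Jag1–Btbd3, beside a Notch ligand gene of arterial endothelium, had 12 in sorted and 15 in unsorted induced EB.

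In MEF, desert regions were found less and less often after induction, as other regions were. At day 1 52.9% (1884 of 3563; interval 51.2 to 54.5) were found, against 63.2% of other MEF regions and 62.6% of all. At day 2 25.3% were found, against 33.7% of other regions and 33.2% of all. With both lists limited to the same number of summits, the day 2 shares were 42.2% of desert and 62.9% of other regions, and with a score of at least 10 they were 19.8% and 22.0%. At day 7 20.5% were found, against 20.2% of other regions and 20.2% of all. In Flk1-sorted cells of day 7 27.8% were found, against 35.8% of other regions and 35.4% of all. The lists held 50015, 26217 and 18418 summits at days 1, 2 and 7 and 29520 in sorted cells, against 62028 in uninduced MEF, with which all 4 were compared. Of the desert regions, 12.1% stood in all 4, 23.7% in day 1 alone and 39.6% in none, against 16.5%, 23.2% and 33.0% of other MEF regions. A further 11.6% of desert regions stood in Flk1-sorted but not in unsorted cells of day 7, against 17.6% of other MEF regions.

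The near-equal shares at day 7 hid differences by score and by class. By quartile of MEF score, weakest first, day 7 held 23.9%, 16.1%, 16.7% and 27.7% of desert regions, against 6.40%, 6.68%, 13.6% and 53.1% of other regions. Weak desert regions were thus found more often, and strong ones less often, than other regions of similar score. Regions also open in EB were found in 59.1% of cases and MEF-only regions in 10.6%, against 41.6% and 6.18% of other regions. With both lists limited to the same number of summits the shares were 26.3% of desert and 47.7% of other regions, with a score of at least 10 required they were 17.2% and 10.8%, and without the 5 deserts richest in shared regions they were 17.4% and 20.2%. The comparison at day 7 thus changed direction with the setting.

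**Figure D3:**
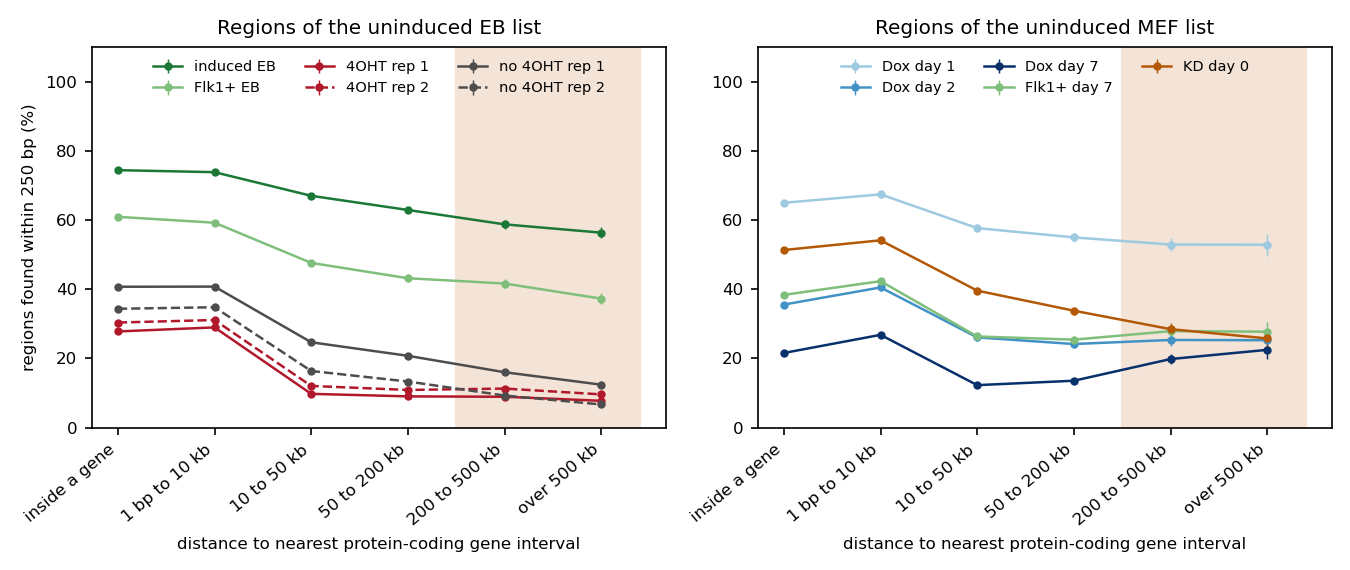
Percent of uninduced EB or MEF regions found in each followed list (y axis, with 95% Clopper-Pearson intervals for counting error) by distance class to the nearest protein-coding gene (x axis). The share in unsorted induced EB was 56.3% beyond 500 kb and 74.4% inside genes, and at MEF day 7 it was 22.5% and 21.5%, with 12.2% at 10 to 50 kb.

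The 118 deserts with more MEF than EB regions held 1000 MEF regions, of which 553 (55.3%) were found at day 1, 237 (23.7%) at day 2, 158 (15.8%) at day 7 and 258 (25.8%) in Flk1-sorted cells. Without the start of chromosome 9, the other 117 held 915, of which 51.3%, 17.0%, 8.09% and 19.5% were found in the same lists. Single deserts differed, and most of those next described were taken for having the most MEF regions not found or for a listed flanking gene. Dsel–Cntnap5a was instead among those with the most MEF regions found at day 7 and in Flk1-sorted cells. Zeb2–Acvr2a was also among those with the most found at days 1 and 2. The contrast between these 2 deserts and the others thus follows in part from how they were picked. Of the 41 MEF regions of Myc–Gsdmc, 21 were found at day 1, 6 at day 2, 1 at day 7 and 5 in Flk1-sorted cells. Slc10a2–Efnb2 had 31 uninduced, then 15, 5 and 0, with 6 in sorted cells, and Gm15501–Tenm4 (chr7:93184176-96171244), beside a teneurin gene, 27, then 17, 1 and 1, with 3 in sorted cells. Adgrl2–Adgrl4 had 24, then 11, 1 and 1, with 3 in sorted cells. The loss was smaller in others with as many MEF regions: Zeb2–Acvr2a had 37, then 21, 11 and 7, with 9 in sorted cells, and Dsel–Cntnap5a 31, then 16, 9 and 10, with 13. In Cdh11–Cdh5 the 17 MEF regions numbered 13 at day 1, 5 at day 2, 0 at day 7 and 3 in sorted cells. All endothelial-flanked deserts together had 62 (54.4%) of 114 MEF regions at day 1, 9 (7.89%) at day 7 and 19 (16.7%) in sorted cells. Fibroblast-flanked deserts, which include Fn1–Mreg beside the fibronectin gene, had 66 of 120 at day 1, 11 (9.17%) at day 7 and 25 (20.8%) in sorted cells. Pluripotency-flanked deserts had 24 (58.5%) of 41, 4 (9.76%) and 7 (17.1%) in the same lists. All 3 groups lie below the 20.5% of all desert MEF regions at day 7, which is 17.4% without the 5 dense deserts described next.

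Against these stood 5 deserts with 10 or more shared regions each, picked after their values were seen. They held 249 regions, 128 of them shared. The start of chromosome 9 up to Alkbh8 held 92 regions, of which 75 were shared, and had 84, 81 and 84 of its 85 MEF regions at days 1, 2 and 7. Ube3a–Snurf (chr7:59310837-59982495), an imprinted stretch of small nucleolar RNA clusters whose human counterpart is lost in Prader-Willi syndrome, held 45, with 14, 14 and 19 of its 25 MEF regions at days 1, 2 and 7. In knockdown MEF Ube3a–Snurf had 0 of 25 at day 0, and at day 7 had 19 with doxycycline, against 11 without. It had none of its EB regions in any of the 4 floxed samples, whose lists hold a single summit per desert peak. The start of chromosome 16 up to Olfr161, Sall3–Galr1 and Pex2–1700008P02Rik held 44, 36 and 32 regions, with 16, 14 and 10 shared. The sequence starts of chromosomes 9 and 16 adjoin the centromeres, where repeats are dense. The part of repeated sequence in these values was not tested.

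EB desert regions were found at a low and similar rate in the MEF lists without knockdown. The share of the 9896 EB desert regions found was 7.39% in uninduced MEF, 7.44% at day 1, 6.86% at day 2, 7.18% at day 7 and 7.10% in Flk1-sorted cells. The other EB regions had 30.1%, 27.2%, 18.97%, 14.002% and 20.5% in the same lists, and all EB regions 27.4%, 24.9%, 17.5%, 13.2% and 18.9%. The desert shares thus stayed within 1 point of each other across these 5 lists. In the knockdown lists they lay between 6.02% and 11.1%.

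New summits of induced MEF lay in deserts more often than summits shared with uninduced MEF. Deserts held 7.69% of the 10525 new summits at day 1, 13.006% at day 2, 17.9% at day 7 and 11.6% in Flk1-sorted cells, against 5.02%, 4.51%, 6.10% and 4.66% of the shared summits. As a share of desert summits, new ones made up 29.0%, 41.6%, 54.1% and 44.9%, against 21%, 19.8%, 28.6% and 24.6% of all summits in those lists. Of these new desert summits 27.3%, 36.9%, 31.3% and 27.5% lay at sites already open in uninduced EB. The same shares were not computed for all new summits, so they are not shown to be particular to deserts. The desert with the most new summits was Ube3a–Snurf, chosen after its values were seen, with 29 at day 1, 36 at day 2, 58 at day 7 and 37 in sorted cells. D3Ertd751e–Pcdh10, beside a protocadherin gene, followed at day 7 with 21. Between the induced cell types, 75 of 809 (9.27%) desert summits new at MEF day 1 matched 73 of 1704 (4.28%) new in unsorted induced EB. In the Flk1-sorted cells the counts were 75 of 845 (8.88%) in MEF and 73 of 998 (7.31%) in EB. The match among all new summits was not computed, so these counts do not set deserts apart from other sites.

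In MEF with Brg1 knockdown at day 0, 27.7% of the MEF desert regions were found, against 48.2% of other MEF regions and 46.9% of all. With doxycycline the share was 18.7% at day 1, against 24.9% without it, and all MEF regions had 33.5% and 44.9%. At day 2 it was 27.1% with and 29.1% without doxycycline, and all regions had 45.6% and 47.4%. At day 7 it was 18.7% with and 16.9% without, and all regions had 11.5% and 10.4%. The differences were −6.23 points at day 1, −2.08 at day 2 and 1.88 at day 7. Both shares of a day came from the same MEF regions and a single list each, so these differences have no replicate error. With lists of equal length they were −1.01, −0.11 and 1.52 points, and with intervals of all genes −2.05, 0.410 and 1.23. The lists held 26882 summits with and 35635 without doxycycline at day 1, 37772 and 44493 at day 2, and 13644 and 11188 at day 7, so the longer list had the higher share each time. Of the 41 MEF regions of Myc–Gsdmc, knockdown MEF held 15 at day 0 and, at day 7, 3 with and 0 without doxycycline. Of the 36 of F2rl3–Isx they held 13 at day 0, and of the 37 of Zeb2–Acvr2a 14. Deserts made up 16.1% of the list with and 13.9% of the list without doxycycline at day 7, against 4.27% and 4.62% at day 1.

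In the floxed EB, where samples have a list each, the desert shares of the 4OHT samples overlapped those of the samples without 4OHT. Of the EB desert regions, 8.42% and 10.6% were found with 4OHT, against 14.5% and 8.21% without it. All EB regions had 20.8% and 23.1%, against 32.9% and 26.2%. The desert groups overlapped, with means of 9.50% ± 1.53 with 4OHT and 11.4% ± 4.47 without (SD, n = 2 each; difference −1.87 points, exact two-sided permutation p = 1). Other regions were found in 23.7% ± 1.66 with 4OHT, against 32.0% ± 4.78 without, and these groups did not overlap (difference −8.32 points, exact two-sided permutation p = 0.333). With 2 samples against 2 no p below 0.333 can be reached. In the strongest quartile of EB score, desert shares were 33.0% and 39.0% with 4OHT, against 45.6% and 29.1% without, and other shares 62.1% and 65.6%, against 76.7% and 69.3%. The desert samples overlapped there too.

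In percentage points, desert regions trailed the other regions by less with 4OHT. The desert share minus the other share was −14.1 and −14.3 points with 4OHT, against −20.8 and −20.4 without it, a difference of 6.45 points with groups that did not overlap (n = 2 each, exact two-sided permutation p = 0.333). The ratio of the desert share to the other share was 0.374 and 0.426 with 4OHT, against 0.411 and 0.287 without, and these groups overlapped (n = 2 each, exact two-sided permutation p = 0.667). At equal list length the 6.45 points became 3.76. The lists were shorter with 4OHT, at 17946 and 20229 summits, against 31436 and 23823. Limited to 17946 summits each, desert shares were 8.42% and 8.64% with 4OHT, against 5.71% and 4.78% without, and other shares were 22.5% and 22.7%, against 23.1% and 23.0%. The direction of the desert difference therefore turned with list length, and deletion of Brg1 and list length cannot be told apart. Of the 9896 regions 3.10% were in all 4 samples, 129 regions in both 4OHT samples alone, 2.46% in both samples without 4OHT alone and 79.7% in none. These patterns were not computed for the other EB regions, so they do not set deserts apart.

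**Figure D4:**
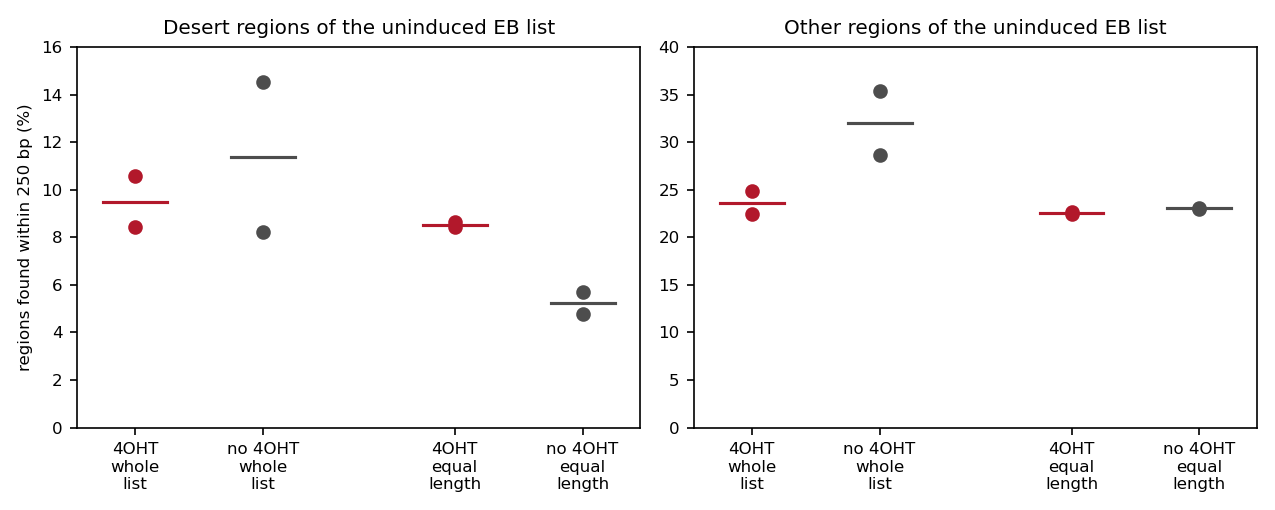
Percent of EB desert regions (left) and other regions (right) found in each floxed EB sample (y axis, 1 point per sample, lines at the group means), with whole lists and with lists of equal length, 4OHT to the left of no 4OHT (x axis). With whole lists the desert points with 4OHT, 8.42% and 10.6%, lie between those without it, 8.21% and 14.5%, and at equal length they lie above them.

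A small core of desert regions had a called summit in nearly every list. Desert regions stood in a median of 2 lists, against 3 for the other regions, and 35.9% stood in a single list, against 23.1% of the others. All 19 lists held 54 desert regions (0.424%), against 1.79% of other regions, and 15 or more lists held 2.33%, against 9.42%. Median EB scores were 4.09 for regions in a single list and 338 for regions in all 19. Among these, 16 lay at the start of chromosome 9. Of the 54, 20 regions in 20 deserts had EB scores from 94.8 to 516 but MEF scores under 10. The highest-scoring desert region, at chr2:98666931 in Lrrc4c–Iftap, had a −log10 q of 28966 in EB and 30394 in MEF and was in all 19 lists. Scores of 1000 or more were held by 51 of 9896 EB and 53 of 3563 MEF desert regions, against 31 of 72990 and 20 of 55478 other regions. The part of repeated sequence in these scores was not tested. The highest EB-only regions scored 612 (Impg1–Htr1b, in 13 lists) and 489 (Cylc2–Smc2, in 16 lists), and both were absent from uninduced MEF but found in all 4 induced MEF lists and also in knockdown MEF at day 0 and in all 3 knockdown lists without doxycycline. The 5 highest MEF-only regions all lay at the start of chromosome 9.

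**Figure D5:**
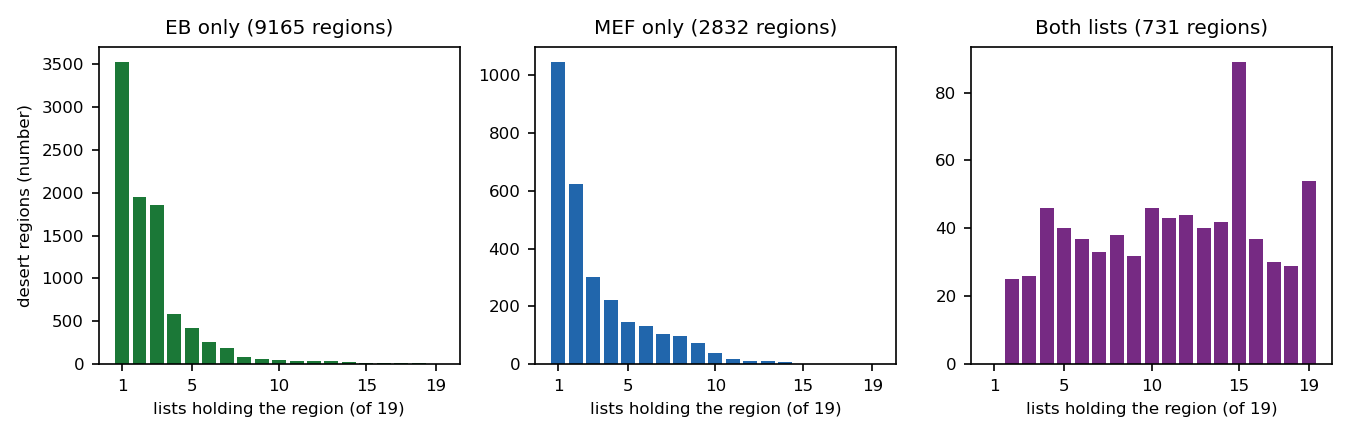
Number of desert regions (y axis) held by each number of the 19 lists (x axis), in a panel each for the 9165 regions open in EB alone, the 2832 open in MEF alone and the 731 open in both. Regions open in both stood in a median of 11 lists, whereas the EB-only and MEF-only bars are tallest at few lists.

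Inside annotated long non-coding RNA genes lay 1422 desert regions (11.2%). This held for 9.61% of EB-only, 15.8% of MEF-only and 12.7% of shared regions.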

How the data were processed

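ATAC-seq libraries of mouse cells were made from 50000 cells each, per the labels' protocols. Bowtie2 2.2.4, MACS2, HOMER and the build mm10 are named in the submitters' processing notes; how the 2 samples of a group were combined is not given in the sources used here. The deposited lists give each summit's position and the −log10 q value that the authors' peak caller assigned, all above the value for q = 0.05. No reads were given, so depth is unknown and list length is the only stand-in. Lists of different length or processing were not rescaled.

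Desert members and gene lists were chosen with earlier results of these data known. Distances were taken to intervals of 21627 RefSeq protein-coding genes. Found shares carry 95% Clopper-Pearson intervals, which cover counting error only. The floxed samples were compared by an exact two-sided permutation test over samples. Named deserts were the 10 with the most members, the 5 with the most EB-only, MEF-only or shared regions and, for each list followed, the 5 with the most regions found or not found; deserts beside listed genes were named too, and exceptions are said in the text to be chosen after their values were seen. One desert that this rule names is not reported here. Named members were the 10 in most lists and the 5 highest-scoring of each class. The steps were tested on simulated data. Alternatives were a 500 kb limit, a 100 bp partner distance, scores of at least 10, intervals of all genes, lists of equal length, each floxed sample left out, the replicate block and, added after seeing the data, leaving out 5 dense deserts and taking only other regions beyond 50 kb. Values were computed with scipy 1.17.1, pandas 2.3.3 and numpy 2.4.6 under Python 3.11.15, and plotted in matplotlib 3.10.9.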

Additional observations from a re-analysis of the deposited data

Results flagged for a closer look

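In knockdown MEF the share of MEF desert regions found was lower with than without doxycycline at days 1 and 2 and higher at day 7. The share with doxycycline minus the share without it was −6.23 points at day 1 and −2.08 points at day 2, but 1.88 points at day 7. With lists of equal length the differences were −1.01, −0.112 and 1.52 points, and with intervals of all genes −2.05, 0.410 and 1.23 points. All MEF regions turned the same way, with 33.5% with and 44.9% without doxycycline at day 1, 45.6% and 47.4% at day 2, and 11.5% and 10.4% at day 7. Among whole lists the longer one had the higher share each time, so doxycycline and list length cannot be told apart. Each day has 1 list per condition, so the difference between days was not tested.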

How the results depend on the processing

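Over 14 results 94 alternatives were run, of which 43 moved the value and 4 turned its direction. The other 47 kept it within its counting error, or within 1.5 times for the number of regions, or, for the floxed differences, kept direction. For the knockdown differences that error treats the shares of a day as independent, which they are not. No p below 0.333 can be reached for the floxed differences, so the side of the threshold was fixed in advance. Their label does not cover size: the desert-minus-other difference of 3.76 points at equal list length counted as kept. The cause was not tested. The 4OHT difference in EB desert regions found (−1.87 points) turned to 1.29 without no-4OHT replicate 1, 2.91 with a score of at least 10 and 3.28 at equal list length. Leaving out 1 floxed sample at a time gave −5.03 to 1.29 for it and 6.24 to 6.67 for the desert-minus-other difference. Against other regions beyond 50 kb from genes only, also chosen after seeing the data, that difference was 5.21 points. With the replicate block, differences within the numbers were −6.11 and 2.37 points and their mean −1.87 (exact permutation p = 1), and the desert-minus-other difference was 6.45 (exact permutation p = 0.5, the smallest that 2 pairs allow). No paired analysis was possible for the other 15 groups because 1 list stands for both samples.

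Shares found, in the order induced EB, Flk1-sorted EB, MEF days 1, 2 and 7, Flk1-sorted MEF and knockdown MEF day 0, changed as follows. With a 100 bp partner distance they were 50.1%, 33.4%, 44.2%, 20.2%, 15.3%, 21.7% and 21.0%, with 3.97% of desert regions open in both cell types. At equal list length they were 63.5%, 59.1%, 61.1%, 42.2%, 26.3%, 38.9% and 39.8%, and the knockdown difference at day 1 was −1.01 points. The other regions then had 75.6%, 72.4%, 72.5%, 62.9%, 47.7%, 58.3% and 66.4%. Beyond 500 kb (4768 regions, 4.03% in both), induced EB had 56.3%, sorted EB 37.3%, MEF day 7 22.5% and knockdown day 0 25.7%, with −4.02 points for knockdown day 1. With a score of at least 10 (5945 regions, 4.22% in both), induced EB had 66.3%, MEF days 2 and 7 19.8% and 17.2%, sorted MEF 24.3% and knockdown day 0 21.1%. With intervals of all genes (1295 regions, 3.78% in both), induced EB had 53.9%, sorted EB 37.1%, MEF days 1 and 7 49.6% and 24.6% and sorted MEF 29.5%; knockdown day 1 had −2.05 points and day 2 turned to 0.410. Without the 5 deserts, a choice made after seeing the data, MEF days 2 and 7 had 22.7% and 17.4%, sorted MEF 25.4%, knockdown day 0 26.1%, and 4.83% were in both.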
